A study of Caenorhabditis elegans with 6 samples.

Results

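The genes described here make the monoamine transmitters dopamine, serotonin, tyramine and octopamine, load them into vesicles and take them back up. The 9 genes were chosen by symbol and are cat-1, cat-2, cat-4, dat-1, bas-1, tph-1, mod-5, tdc-1 and tbh-1. Of these, 7 are among the 12072 genes of the authors' deposited table. The other 2, tph-1 (WBGene00006600), which encodes tryptophan hydroxylase, and mod-5 (WBGene00003387), which encodes the serotonin reuptake transporter, matched neither by symbol nor by identifier and were not analysed here. The genes specific to serotonin therefore have no value, and the pathway can be followed for dopamine, tyramine and octopamine.

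RNA was sequenced from RIS, an interneuron of Caenorhabditis elegans that uses GABA and neuropeptides and whose activity brings on sleep-like quiescence, and from whole larvae. The labels list 3 RIS libraries, from synchronized L1 larvae of a strain called RIS::mKate in which a flp-11 promoter limits the red fluorescent protein to RIS, dissociated, sorted by fluorescence and collected in Trizol. They list 3 reference libraries of synchronized N2 L1 larvae, the wild-type laboratory strain, frozen over liquid nitrogen with all their cells. Both were hatched overnight in M9 buffer after hypochlorite treatment of the mothers, and strain, dissociation and sorting cannot be told apart from cell type in this design. The sorting notes name AVK, another neuron, and mCherry, whereas title, source and cell type name RIS. The files hold only the authors' comparison, so the value in each library, its depth and the spread within a group are unknown. Whether the libraries of a group come from separate cultures is not stated, and the p-values cover only their spread, which may be technical.

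In the worm as in other animals, dopamine is made from tyrosine by a hydroxylase and a decarboxylase, and serotonin from tryptophan by another hydroxylase and the same decarboxylase. Tyramine is made from tyrosine by a decarboxylase of its own, and octopamine from tyramine by a hydroxylase. The hydroxylases of tyrosine and tryptophan need the cofactor tetrahydrobiopterin (BH4). A vesicular monoamine transporter packs all of these amines, and plasma membrane transporters of the SLC6 family clear dopamine and serotonin. Few neurons of the larva make amines, chiefly the CEP and ADE dopamine neurons, the NSM and ADF serotonin neurons, and RIM and RIC for tyramine and octopamine. RIS is not counted among them.

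The labelled cell type was checked against its markers. All 8 RIS markers and all 12 panneuronal genes measured were higher in RIS by the authors' deposited table, with median log2 fold changes of 6.74 and 3.72, where a positive value means higher in RIS than in whole larvae. Over the whole of the authors' deposited table, 9.84% of genes were higher and 26.4% lower at an adjusted p below 0.05, and the median log2 fold change was −0.78. Genes below the median expression of the table, which include 6 of the 7 measured monoamine genes, were higher in 4.49% and lower in 29.0% of cases. Markers of other cells were lower to different degrees. Of 8 glial markers 2 were lower and 6 not called (median −0.37), and of 9 body wall muscle markers 5 were lower and 4 not called (median −2.30). Among the latter, the myosin gene unc-54, stood near 3846 CPM in RIS and 1943 CPM in whole larvae (0.98, adjusted p = 0.0913) by the authors' deposited table. Of 8 intestinal markers 7 were lower, and of 8 pharyngeal markers 7 were lower and 1 was higher. Some genes that were much lower in RIS sit at positions that a few RIS reads can give. There were 955 of these, and no fold is printed for them because it depends on a prior count that the sources used here do not state.

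Of the 7 measured genes 4 were lower in RIS, 0 were higher and 3 were not called, and at an unadjusted p below 0.05 the counts were also 4 and 0. The 4 lower genes were cat-2, dat-1, bas-1 and cat-1, which are the steps of the dopamine pathway from tyrosine hydroxylation to reuptake apart from the cofactor. The shares of 57.1% lower and 0% higher stand beside 26.4% and 9.84% of all genes. The median log2 fold change of the 7 was −2.92, against −0.78 over all genes. At an adjusted p below 0.01 there was 1 lower gene, dat-1, where 14.2% of all genes were lower and 4.9% higher. Measured from the all-gene median 2 were lower, cat-2 and dat-1, where 20.3% of all genes were lower and 16.6% higher. Without the genes at few RIS reads 2 were lower, dat-1 and bas-1, where 18.9% were lower. This setting removed genes already much lower in RIS, 946 of 955 of them called lower, so its counts cannot test the calls. At or above median expression, where 24.3% were lower and 15.5% higher, cat-4 alone was left and was not called. In a bulk comparison fewer cells of a type and less RNA per cell cannot be told apart.

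**Figure D1:**
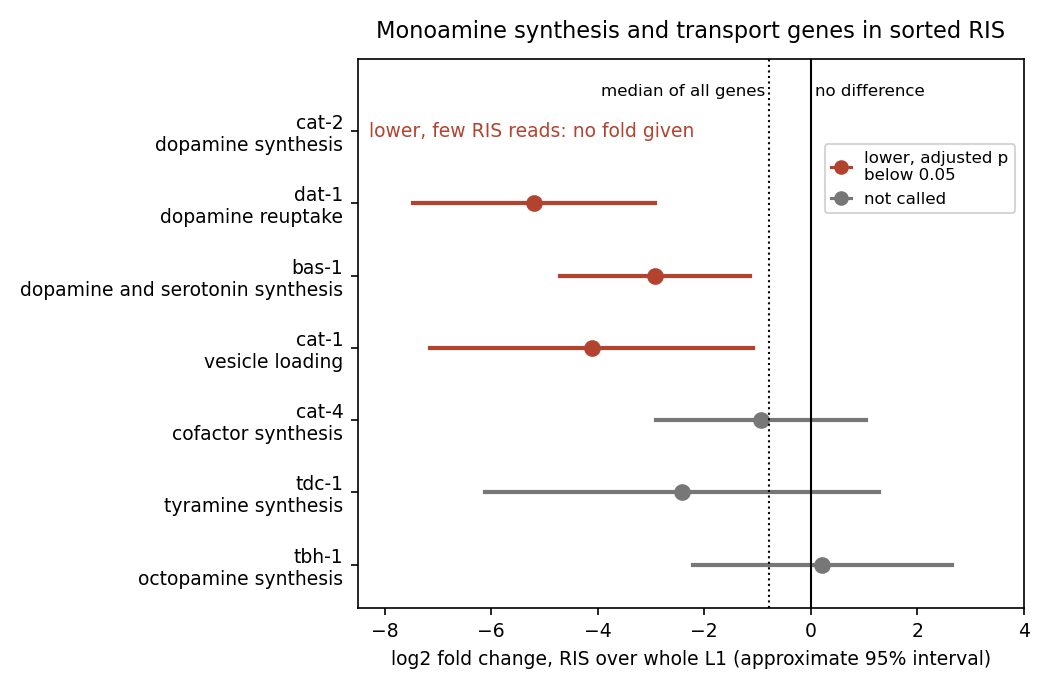
Log2 fold change (x axis, RIS over whole L1) of each measured monoamine gene (rows, with its role), as points with approximate 95% intervals as bars, red where lower at an adjusted p below 0.05 and grey where not called. The dotted line is the median of all genes at −0.78, and the intervals of dat-1, bas-1 and cat-1 end below it, whereas those of cat-4, tdc-1 and tbh-1 span 0. The intervals are not adjusted for the number of genes. Measured from that median, bas-1 (adjusted p = 0.0631) and cat-1 (adjusted p = 0.0823) were not called.

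The genes used for dopamine alone had the smallest adjusted p-values of the 7. For cat-2 (WBGene00000296), which encodes tyrosine hydroxylase, the rate-limiting enzyme of dopamine synthesis, the authors' deposited table gave an adjusted p of 0.0113. Its position corresponded to 2 to 4 RIS reads in all, at an approximate level of 4.20 CPM (counts scaled to library size) in whole larvae. For dat-1 (WBGene00000934), which encodes the dopamine reuptake transporter, the log2 fold change in the authors' deposited table was −5.20, a level 36.7-fold lower in RIS (approximate 95% interval −7.47 to −2.92, adjusted p = 0.00739). Its level was near 7.73 CPM in whole larvae and 0.211 CPM in RIS, where it corresponded to 6 to 10 reads. Both RIS values thus rest on at most 10 reads. Measured from the all-gene median both kept their calls, with adjusted p of 0.0198 for cat-2 and 0.0132 for dat-1.

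Of the genes that more than 1 amine needs, bas-1 and cat-1 were lower, by less secure calls, and cat-4 and tdc-1 were not called. The gene bas-1 (WBGene00000239) encodes the aromatic amino acid decarboxylase of dopamine and serotonin synthesis, and the authors' deposited table gave it a log2 fold change of −2.92, or 7.59-fold lower (interval −4.70 to −1.14, adjusted p = 0.0220). Its approximate level went from 15.3 CPM in whole larvae to 2.02 CPM in RIS, which corresponded to 66 to 97 reads, so the transcript was present in the RIS libraries. A similar gene, basl-1, lies next to bas-1 in the RefSeq annotation and was not analysed here. How reads matching both would have been counted is not given in the sources used here, which leaves the value of bas-1 uncertain. For cat-1 (WBGene00000295), which encodes the vesicular monoamine transporter that dopamine, serotonin, tyramine and octopamine neurons all need, the authors' deposited table gave −4.11, or 17.3-fold lower (interval −7.14 to −1.09, adjusted p = 0.0431). Its approximate level was 3.03 CPM in whole larvae and 0.175 CPM in RIS, the latter corresponding to 5 to 9 reads. Measured from the all-gene median both calls ended, at an adjusted p of 0.0631 for bas-1 and 0.0823 for cat-1. The call on cat-1 also ended without the genes at few RIS reads, a setting that removes mostly lower genes before the adjustment.

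The cofactor gene cat-4 (WBGene00000298) encodes GTP cyclohydrolase, which starts BH4 synthesis. Its approximate level was 19.3 CPM in whole larvae and 10.2 CPM in RIS. The log2 fold change in the authors' deposited table was −0.93 (interval −2.90 to 1.04, adjusted p = 0.433), close to the median of all genes. BH4 also serves enzymes outside the amine pathway, and cat-4 is known to be used in the hypodermis of the worm.

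The tyramine and octopamine genes were not called. For tdc-1 (WBGene00006562), the tyrosine decarboxylase gene, the authors' deposited table gave −2.42 (interval −6.12 to 1.29, adjusted p = 0.275), at about 12.1 CPM in whole larvae and 2.26 CPM in RIS. Its approximate standard error of 1.55 was larger than that of 97.5% of the 2047 genes of like expression, whose median was 0.91. For tbh-1 (WBGene00006541), the tyramine beta-hydroxylase gene that makes octopamine, the authors' deposited table gave 0.22 (interval −2.21 to 2.65, adjusted p = 0.892). It was the only measured monoamine gene whose level was not lower in RIS, near 2.29 CPM against 1.97 CPM in whole larvae, and the RIS value corresponded to 75 to 110 reads. On the opposite strand, the gene H13N06.7, not analysed here, covers 17.05% of the exon bases of tbh-1 in the Ensembl annotation. Whether counting used strand is not given in the sources used here, so reads of the pair cannot be told apart. Opposite-strand genes share 6.90% of the exon bases of cat-4 (vps-54) and 2.93% of those of tdc-1 (gei-14).

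**Figure D2:**
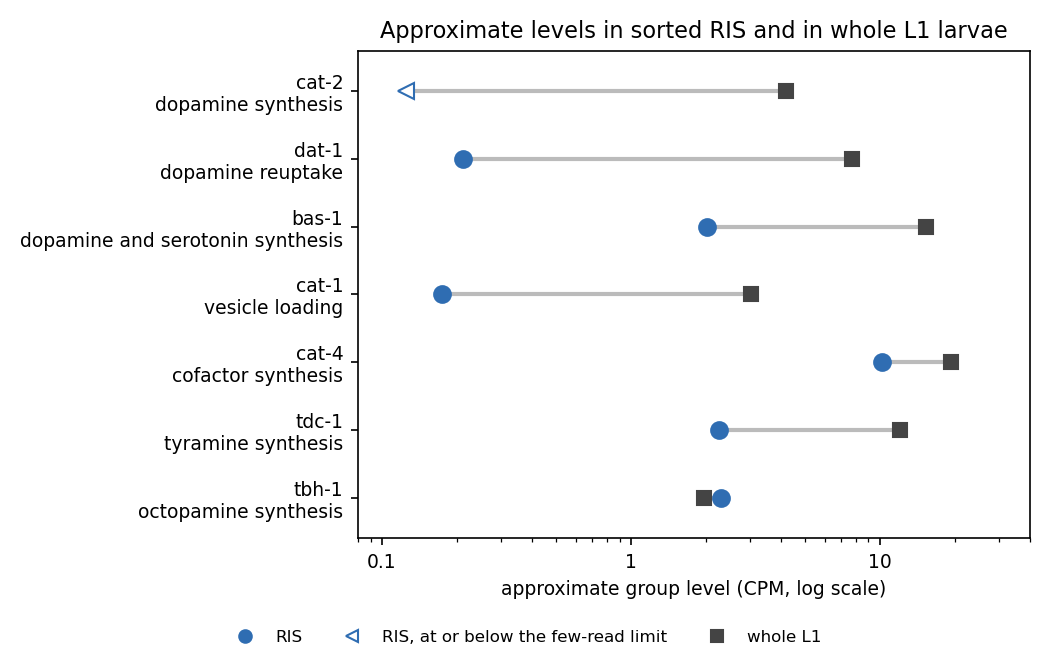
Approximate level (x axis, CPM on a log scale) of each measured monoamine gene in RIS (circles) and whole L1 larvae (squares), with no error available. The RIS level of cat-2 is drawn as a triangle at the few-read limit of 0.125 CPM. RIS lies to the left of whole larvae for every gene but tbh-1, at 2.29 against 1.97 CPM.

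Levels can be compared between genes only per length. In whole larvae the approximate level per kilobase of exon was 21.2 CPM for cat-4, 9.33 for bas-1, 4.84 for tdc-1, 3.72 for dat-1, 1.73 for cat-2, 1.51 for cat-1 and 0.901 for tbh-1. In RIS, cat-4 led again with a level of 11.1 CPM per kilobase. It was followed by bas-1 at 1.23, tbh-1 at 1.05 and tdc-1 at 0.907 CPM per kilobase, and dat-1 and cat-1 had levels of 0.102 and 0.0871. Levels carry no error here, and whether neighbours in this order differ was not tested.

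In coordinates of the authors' deposited table, which names no build, the genes are spread over 4 chromosomes. The table lists cat-2 at II 257819 to 261063 and tdc-1 at II 8270567 to 8273611. It lists bas-1 at III 5612274 to 5614700 and dat-1 at III 9242914 to 9246802, cat-4 at V 10564880 to 10566445, and cat-1 at X 5705719 to 5710625 and tbh-1 at X 15500259 to 15504895. All 7 are protein coding.

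Markers of neurons that make amines were described beside these genes. Of 5 measured dopamine neuron markers 2 were lower and 0 higher, also at an unadjusted p below 0.05. The lower ones were the mechanosensory channel gene trp-4, at few RIS reads, and nlp-33, which is also an epidermal peptide gene and for which the authors' deposited table listed −4.43. Of those not called, it listed 2.09 for the sodium channel gene asic-1 (adjusted p = 0.370), 0.78 for the ETS factor gene ast-1 (adjusted p = 0.295), which dopamine neurons need, and −0.83 for the receptor gene dop-2. The summed approximate level of the 5 was 62.7 CPM in RIS and 126 CPM in whole larvae, a direction that rests on nlp-33. Without it the sums were 58.5 CPM in RIS and 36.9 CPM in whole larvae. Of these sums ast-1, which was not called, gave 52.2 CPM and 30.5 CPM. The dopamine neurons are ciliated, and of 12 markers of ciliated sensory neurons 9 were lower and 0 higher, with the same counts at an unadjusted p below 0.05 and a median log2 fold change of −4.78. Of 3 measured serotonin neuron markers 2 were lower, ceh-2 and ocr-2, both at few RIS reads. The RIM marker cex-1, near 2.17 CPM in whole larvae, was the only measured marker of the tyramine and octopamine neurons, so RIC had none. By its degrees of freedom cex-1 had no RIS reads. The part of these cell types in the values of the monoamine genes was not tested.

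Genes tied to BH4 other than cat-4, including enzymes that use it outside amine synthesis, were mostly lower in RIS. Of 5 measured genes 4 were lower and 0 higher, with the same counts at an unadjusted p below 0.05, and 1 further listed gene had no value. The shares of 80% lower and 0% higher stand beside 26.4% and 9.84% of all genes. The 4 were also lower when measured from the all-gene median, where 20.3% of all genes were. For the dihydropteridine reductase gene qdpr-1, which recycles the cofactor, the authors' deposited table listed a log2 fold change of −2.70 with an adjusted p of 0.00808. For gfrp-1, whose product regulates GTP cyclohydrolase, the authors' deposited table listed −2.93 with an adjusted p of 0.0145. Of the enzymes that use BH4 outside amine synthesis, the phenylalanine hydroxylase gene pah-1 stood at −4.02 (adjusted p = 0.00434), again by the authors' deposited table. The ether lipid enzyme gene agmo-1 fell to few RIS reads. The carbinolamine dehydratase gene pcbd-1, which also recycles BH4, was not called by the authors' deposited table (0.12, adjusted p = 0.838). Of 9 hypodermal markers 5 were lower and 0 higher (6 and 0 at an unadjusted p below 0.05), with a summed level of 393 CPM in RIS and 6017 CPM in whole larvae. The part of the hypodermis in the fall of the BH4 genes was not tested.

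Genes that break amines down or modify them were lower more often than higher, as were all genes. Of 9 measured genes 4 were lower and 1 was higher (5 and 1 at an unadjusted p below 0.05). The shares of 44.4% and 11.1% stand beside 26.4% and 9.84% of all genes. By the authors' deposited table the monoamine oxidase genes amx-1 (−5.39, adjusted p = 0.00660) and amx-2 (−4.93, adjusted p = 0.00682) fell, and a further oxidase gene, amx-3, was not called (−3.41, adjusted p = 0.0739). The RIS level corresponded to 5 to 8 reads for amx-1 and 16 to 25 reads for amx-2. Among the catechol-O-methyltransferase genes comt-1 and comt-2 fell to few RIS reads. By the authors' deposited table neither comt-3 (−0.53) nor comt-4 (−1.40) was called. The gene anat-1, whose product is related to arylalkylamine N-acetyltransferases, rose 10.3-fold, with a log2 fold change in the authors' deposited table of 3.36 (interval 2.23 to 4.497, adjusted p = 0.00474). Its approximate level was 58.3 CPM in RIS and 5.67 CPM in whole larvae. The methyltransferase gene homt-1 was not called, with a value in the authors' deposited table of 0.02 (interval −1.99 to 2.02, adjusted p = 0.991).

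Transporters of other transmitters went both ways. Among vesicular transporters beside cat-1, the GABA transporter gene unc-47, itself a RIS marker, had a log2 fold change in the authors' deposited table of 6.27, and the acetylcholine transporter gene unc-17 had 1.27 (not called). The glutamate transporter gene eat-4 (−3.58, not called) and its relatives vglu-2 (−3.11) and vglu-3 (−6.51) lay lower in the authors' deposited table, the last 2 past the threshold. Of the SLC6 genes beside dat-1, the betaine transporter gene snf-3 rose by the authors' deposited table (2.39, adjusted p = 0.0121), and snf-12, which acts in the epidermal immune response, fell (−5.26, adjusted p = 0.00660). The RIS level of snf-12 corresponded to 7 to 11 reads. By the authors' deposited table neither snf-1 (1.30) nor the GABA transporter gene snf-11 (−1.83) was called, and measured from the all-gene median snf-1 was higher (adjusted p = 0.0186). In the decarboxylase family, bas-1 and tdc-1 were the only measured genes of 5.

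Transcription factors used in the making of monoamine neurons were lower in 4 of 8 measured cases and higher in 0 (5 and 1 at an unadjusted p below 0.05). The shares of 50% and 0% stand beside 26.4% and 9.84% of all genes. The homeobox genes unc-62 (−3.31), ceh-20 (−3.03) and the Pax gene vab-3 (−3.94) fell in the authors' deposited table, and the doublesex-like gene mab-23 fell to few RIS reads. The POU gene unc-86, used in serotonin neurons, was not called by the authors' deposited table (−2.58, adjusted p = 0.0595). Nor did the authors' deposited table call the Notch pathway factor gene lag-1 (1.43) or the zinc finger gene egl-46 (1.23). Measured from the all-gene median, lag-1 was higher (adjusted p = 0.0165) and ceh-20 lost its call.

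Receptors for the same amines lay on the other side. Of 17 measured receptor genes 12 were higher in RIS and 0 lower, also at an unadjusted p below 0.05, with a median log2 fold change of 3.998. The shares of 70.6% higher and 0% lower stand beside 9.84% and 26.4% of all genes. The 12 panneuronal genes were all higher as well, with a median of 3.72, so being higher is not particular to the receptors. For dopamine, 4 of 5 receptor genes were higher, with the ligand-gated channel gene lgc-53 at 6.57, dop-1 at 5.66, dop-5 at 4.57 and dop-3 at 3.998 in the authors' deposited table. The exception was dop-2, known as an autoreceptor of dopamine neurons, for which the authors' deposited table listed −0.83 (adjusted p = 0.412). For serotonin, 3 of 5 were higher, with ser-4, which also served as a RIS marker, at 8.39, the channel gene lgc-50 at 4.84 and ser-7 at 4.65 in the authors' deposited table, and the channel gene mod-1 was not called (1.70). For tyramine and octopamine, 5 of 7 were higher, with the octopamine receptor genes octr-1 at 5.11 and ser-6 at 4.15, the tyramine-gated channel gene lgc-55 at 3.74 and the tyramine receptor gene tyra-2 at 3.66 in the authors' deposited table. The synthesis and transport genes summed to 17.2 CPM in RIS and 63.6 CPM in whole larvae. The receptor genes summed to 1072 CPM in RIS and 45.99 CPM in whole larvae. In RIS, ser-4 gave 525 CPM and ser-7 174 CPM of the receptor sum. The gene cat-4, not called, gave 10.2 CPM of the synthesis and transport sum in RIS. Neither sum is scaled to gene length. No test of the difference between the gene groups was made.

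**Figure D3:**
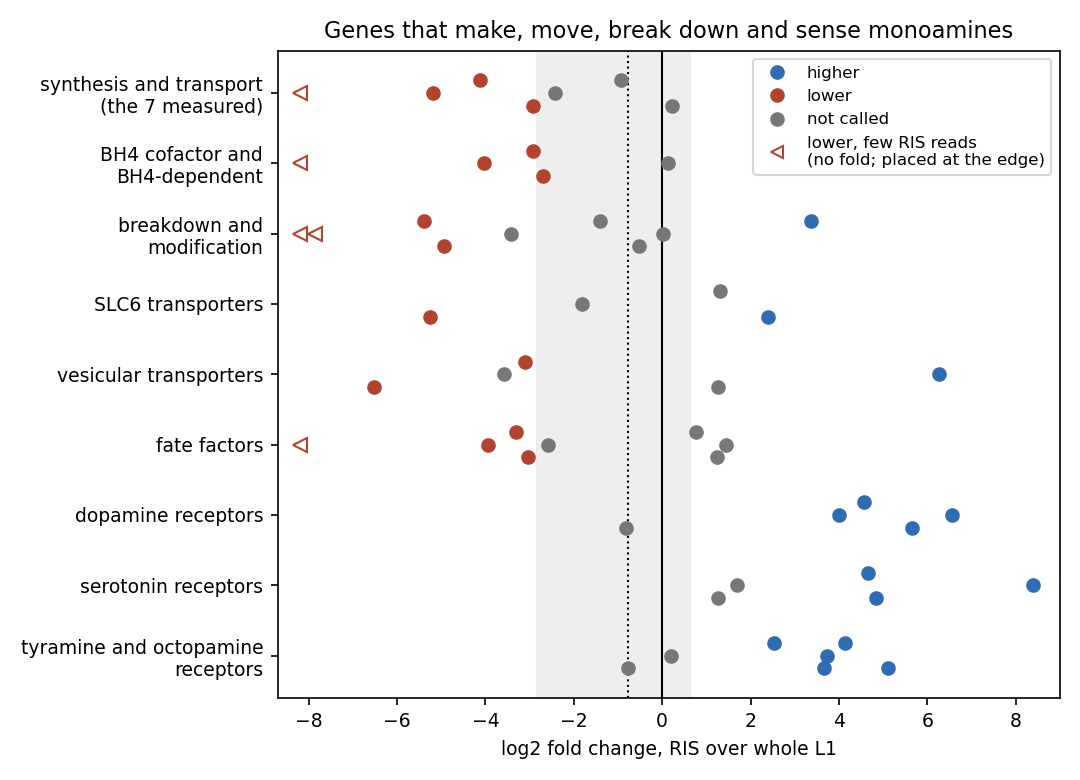
Log2 fold change (x axis, RIS over whole L1) of the genes of each group (rows), blue where higher, red where lower and grey where not called at an adjusted p below 0.05. Each of the 7 monoamine genes is drawn in the top row only, and open triangles at the left edge are lower genes at few RIS reads. The grey band spans all genes from their lower to their upper quartile, −2.82 to 0.62. Every gene called higher changed at least 2-fold, so all 12 called receptor genes lie to the right of the band by the call itself. Of the 5 receptor genes not called, some lie inside it, such as dop-2 and ser-3. Of the 7 synthesis and transport genes 0 lie to its right.

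Genes nearest to each monoamine gene in fold change and mean expression were found over the 1 comparison, with each axis divided by its SD over all genes. They were glna-1 and cutl-21 for cat-1, hasp-1 and npr-18 for dat-1, taf-7.1 and nhr-198 for cat-2, and ugt-19 and igcm-1 for bas-1. They were wdr-46 and fbxa-82 for cat-4, set-1 and clec-184 for tdc-1, and ceh-91 and zhit-2 for tbh-1. The distances lay between 0.00394 and 0.0686 SD.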

How the data were processed

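The table deposited by the authors has 12072 genes. Per the file headers its columns per gene are a log2 fold change, the log2 CPM averaged over both groups, an F score, a p-value and an adjusted p-value, the columns of edgeR's quasi-likelihood test. The sources used here do not give aligner, counting tool, build, annotation, filters or prior count, and depth is unknown. The table has 0 columns of values per library. Calls use the authors' adjusted p below 0.05. The Benjamini-Hochberg adjustment was recomputed and differed by at most 3.44e-15.

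The denominator degrees of freedom, recovered from F and p, were 6.76, and 5.76 for 170 genes lower in RIS, which have no RIS reads. A loss of 1 is what a group of 2 libraries gives, whereas the labels list 3 for RIS. Standard errors were approximated by dividing the log2 fold change by the square root of F. Group levels were split from the fold change and the mean CPM with equal weight for both groups. Weights of 2 to 3 would multiply the levels of the 7 genes by 0.839 to 1.02. RIS reads were estimated from the spacing of genes with few reads above those with none. Genes up to the position of 4 reads count as having few only where their log2 fold change was also strongly negative. Positions of more reads overlap with that of 4 reads. Read estimates cover no counting error.

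Exon lengths, overlaps and neighbours come from Ensembl release 115 and RefSeq (WBcel235), with 12052 identifiers matched. Sequences were not analysed here. The genes and lists were chosen with earlier results of these data known. The text names every measured gene of the pathway lists other than receptors, the 4 genes of each receptor list with the smallest adjusted p, and the 2 nearest genes with public names. Outside these rules, dop-2, ser-3, unc-54, basl-1, overlapping genes and the markers of neurons that make amines were named after their values were seen. Computations ran in Python 3.11.15 with scipy 1.17.1, pandas 2.3.3, numpy 2.4.6 and, for plots, matplotlib 3.10.9, and were tested on simulated data.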

Additional observations from a re-analysis of the deposited data

How the results depend on the processing

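No paired analysis was possible because the table used here gives no values per library, and leaving out a library was not run for the same reason. The count of 4 lower monoamine genes fell to 1 (dat-1) at an adjusted p below 0.01. It was 2 relative to the median of all genes (cat-2 and dat-1) and 2 without genes at few RIS reads (dat-1 and bas-1). The latter setting drops genes by their fold change as well as their reads, so its count follows in part from the filter. It was 0 at or above median expression, where cat-4 alone was left to test. Of 31 measured pathway partners 15 were lower (48.4%, beside 26.4% of all genes) and 3 were higher (9.68%, beside 9.84%). At or above median expression 7 of 19 partners were lower, where 24.3% of all genes were. With the all-gene median subtracted, 5 of the 31 were higher. The share of all genes called higher also rose under that setting, to 16.6%, so the larger count does not set the partners apart. Receptor counts stayed within 1.5 times, from 10 to 12 higher and 0 lower under all 6 settings. Measured from the all-gene median, comt-3 (not called) changed sign to 0.25 and ser-3 to 0.0067. A fold change of at least 2 and the recomputed adjustment left the counts over all genes unchanged, at 1188 higher and 3183 lower. These settings therefore test neither the calls on named genes nor the receptor counts. Among the 7 monoamine genes, unknown depth limits cat-1, cat-2 and dat-1 most, since their RIS values rest on few reads. The same limit holds for amx-1 and snf-12.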
